A study of Mus musculus with 20 samples.

Results

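Detoxification enzymes were taken as the protein-coding mouse genes of the aldehyde dehydrogenase (Aldh), glutathione S-transferase (Gst classes a, k, m, o, p and t), UDP-glucuronosyltransferase (Ugt1 and Ugt2), carboxylesterase (Ces1 to Ces5) and aldo-keto reductase (Akr1) families, with the quinone reductases Nqo1 and Nqo2. The rule uses gene symbols alone and no measured value, though the families were picked with earlier results of these data known. The symbols matched 96 of the 43432 genes in the deposited table, as 20 Aldh, 20 Gst, 20 Ces, 16 Akr1, 9 Ugt1a, 9 Ugt2 and 2 Nqo genes. Of the 96, 61 had counts enough to be tested. The other 35 never exceeded 0.658 CPM, and 20 of those had 0 counts in every library, among them all 9 Ugt2 genes. Levels are given as CPM, a gene's counts divided by its library's TMM-scaled total.

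RNA was sequenced from 20 libraries of mouse cells in 7 groups, and the labels give Nude Mouse as the strain of every group. Of these, 5 were grown out after contact with SU3, a human glioma stem cell line, and the labels call these cells transformed. C12 (3 libraries) is labelled as macrophages transformed in an in vitro co-culture with SU3+ peritoneal washing cells. ih_CTC (3) is labelled as macrophages from a peritoneal xenograft. ih_DCTC (3) is labelled as dendritic cells, from an in vitro co-culture of SU3+ cells with bone marrow dendritic cells. ih_STC_BM (3) is labelled as mesenchymal stem cells, cultured from an SU3 tumor in a mouse whose bone marrow was damaged and reconstructed. ih_BCTC (3) is labelled as oligodendrocytes, recultured from an SU3 tumor of the brain. The untransformed groups were MDSC (3), myeloid-derived cells that suppress immune responses, and MSC (2), mesenchymal stem cells of normal mouse bone marrow. Lines were kept in DMEM with 10% fetal bovine serum and are described as monoclonal cultures, so each may stand for 1 clone. Nothing in the labels says whether the libraries of a group came from separate cultures or animals, and p-values here measure only the spread between these libraries.

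Total expected counts were 8794777 to 12400640 per library, and 1.02% to 10.4% of reads fell in introns. The 10 macrophage and monocyte markers found in the table summed to 34.7 to 203 CPM in the 5 lines, 9380 to 9590 CPM in MDSC and 16500 to 22000 CPM in MSC, so the MSC libraries held myeloid transcripts and the lines labelled as macrophages or dendritic cells held few. The 10 mesenchymal markers summed to 2890 to 11700 CPM in the lines, 24.3 to 24.8 CPM in MDSC and 5010 to 5640 CPM in MSC. Of 8 oligodendrocyte markers, 4 reached 1 CPM in ih_BCTC and the defining Olig2, Sox10 and Mog were at 0, and the list summed to 47.9 to 76.1 CPM there, against 30.4 to 176 CPM in the other lines, 141 to 161 CPM in MDSC and 83.4 to 92.5 CPM in MSC. MDSC also held granulocyte (39200 to 41800 CPM), erythroid (15400 to 16200 CPM), dendritic cell (2960 to 3040 CPM) and lymphocyte (1380 to 1440 CPM) transcripts. Adipocyte markers summed to 7.4 to 141 CPM in the lines, 12.4 to 13.8 CPM in MDSC and 1110 to 2690 CPM in MSC. At least the myeloid list differed in every comparison with MDSC or MSC below. Not every list did: the mesenchymal sum of ih_STC_BM (2890 to 11700 CPM) spanned that of MSC. Fewer cells of a type cannot be told apart from less RNA per cell in such bulk samples. The 9 hepatocyte genes summed to at most 0.481 CPM in any library. Library C12 3 had 5.23% of reads in introns, against 2.52% in C12 1 and 1.02% in C12 2, and ih_STC_BM 2 had 8.52% against 2.34% and 1.79% in the other libraries of its line. Many values below separate along the same libraries, and results were refitted without libraries of low intron share and also with that share as a model term. MDSC libraries had 9.64% to 10.36% of reads in introns, above every line library (1.02% to 8.52%) and MSC (2.07% to 3.09%). In every comparison with MDSC the share therefore differs along with the group, and the model term reaches beyond shares found in both groups. The 3 MDSC libraries differed little beyond sampling noise (chi-square of 1.72 to 3.32 per degree of freedom, against 25.6 to 282 between the libraries of other groups).

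Aldehyde dehydrogenases oxidise reactive aldehydes to acids, and aldo-keto reductases and Nqo1 reduce aldehydes, ketones and quinones. Glutathione S-transferases and glucuronosyltransferases then couple glutathione or glucuronic acid to reactive or poorly soluble molecules, and carboxylesterases cleave ester and amide bonds in drugs and lipids. These enzymes are best known from liver, where the Ugt2 and many Ces genes are strongly expressed, and several are targets of the transcription factor Nrf2 or of the aryl hydrocarbon receptor. Some members have other main substrates, among them retinaldehyde, proline precursors and folates for Aldh enzymes and steroids for Akr1c enzymes.

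How reads were divided among the Ugt1a symbols limits their values. Each Ugt1a symbol has its own 5′ exon joined to the same downstream exons on chromosome 1, and the 740 last coding bases, 46.4% of the coding sequence of Ugt1a6a, were identical among them in GENCODE M21 transcripts. The start of this shared stretch is shown because the coding letters that tell the symbols apart lie before it. It was found by matching letters and need not fall exactly on the exon join. Lower case marks the 45 bases before the shared stretch and capitals mark its first 45 bases.
Ugt1a6a: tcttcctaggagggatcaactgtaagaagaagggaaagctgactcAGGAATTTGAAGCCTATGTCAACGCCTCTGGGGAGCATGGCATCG
Ugt1a6b: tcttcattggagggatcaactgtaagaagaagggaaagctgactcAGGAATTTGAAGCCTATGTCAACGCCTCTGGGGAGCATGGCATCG
Ugt1a7c: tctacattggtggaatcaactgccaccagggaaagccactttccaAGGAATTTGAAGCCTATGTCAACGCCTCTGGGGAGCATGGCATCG
Ugt1a1: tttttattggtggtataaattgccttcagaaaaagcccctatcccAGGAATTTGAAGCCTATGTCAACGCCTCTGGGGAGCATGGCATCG
The capitals are the same in all 4 and the lower-case stretches of Ugt1a6a and Ugt1a6b nearly so. Over their whole coding sequences Ugt1a6a and Ugt1a6b were 98.4% identical, against 64.0% for Ugt1a6a and Ugt1a7c, and 1 of the 3 annotated coding sequences of Ugt1a7c was identical to that of Ugt1a6a. The split of counts among these symbols is therefore uncertain, and a sum over the 9 symbols is given beside them. Other near copies were Gstp1 and Gstp2 (98.1% identical in coding sequence), Gsta1 and Gsta2 (97.5%), Akr1c12 and Akr1c13 (96.2%) and Aldh1a1 and Aldh1a7 (91.6%), and their separate values are also uncertain.

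A pair of alpha-class Gst promoters is shown because both genes were detected mainly in C12. The windows run from 250 bases before to 50 bases after the annotated start, from RefSeq on GRCm38.p6, and capitals mark a motif found by searching both strands. Gsta3 (chr1:21240335-21240634, plus strand) holds 1 match to TGACNNNGC, the core of the antioxidant response element that Nrf2 binds, at position -121 from the start. Gsta2 (chr9:78347096-78347395, minus strand) holds 1 match to TNGCGTG, the core bound by the aryl hydrocarbon receptor, at position -9.
Gsta3: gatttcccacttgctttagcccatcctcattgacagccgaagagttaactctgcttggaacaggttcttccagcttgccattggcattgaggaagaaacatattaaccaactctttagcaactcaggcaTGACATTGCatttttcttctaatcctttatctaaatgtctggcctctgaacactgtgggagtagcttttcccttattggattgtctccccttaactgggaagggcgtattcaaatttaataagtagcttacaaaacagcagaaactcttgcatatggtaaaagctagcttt
Gsta2: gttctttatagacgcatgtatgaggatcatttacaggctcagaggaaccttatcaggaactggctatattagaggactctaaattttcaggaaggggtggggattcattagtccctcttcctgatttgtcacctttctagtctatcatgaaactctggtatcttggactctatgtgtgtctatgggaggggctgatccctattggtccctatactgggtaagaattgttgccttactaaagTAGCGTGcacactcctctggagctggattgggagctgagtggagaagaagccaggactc
Of the 80 members with such a window, 7 (8.8%) held the first motif and 5 (6.2%) the second, against 14.0% and 5.8% of all genes with a window. A match of letters is not a binding site, and neither share stood above that of other genes by more than 1 percentage point.

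Summed over all 96 genes and per transcript length (TPM computed here from counts and exon length), the families reached 8790 ± 3220 in C12 (SD, n = 3), 3310 ± 602 to 3900 ± 176 in the other lines, 1000 ± 7.96 in MDSC and 3750 ± 222 in MSC (n = 2). The leading member differed between groups. Aldh3a1 alone made up 44.5% of the C12 sum and Akr1c18 21.8% of the ih_CTC sum, while Akr1a1 made up 49.1% of the MSC sum and Aldh2 22.3% of the MDSC sum. The Gst genes summed to 2880 ± 685 TPM in C12 and 1460 ± 156 to 2170 ± 231 TPM in the other lines, above 200 ± 5.04 TPM in MDSC and 638 ± 17.6 TPM in MSC. Carboxylesterases were scarce, at 79.1 ± 22.9 TPM in C12, 1.08 ± 0.752 to 13.4 ± 16.9 TPM in the other lines, 41.6 ± 1.35 TPM in MDSC and 1.48 ± 0.0104 TPM in MSC. Of the 61 tested genes, 22 had their highest mean CPM in C12, 15 in MSC, 7 each in ih_DCTC and ih_STC_BM, 5 in MDSC, 4 in ih_CTC and 1 in ih_BCTC. No such count was made over all genes. Members such as Gsta2, Gsta3 and Ces1f could pass the count filter through C12, so these counts describe the list and do not test it.

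**Figure D1:**
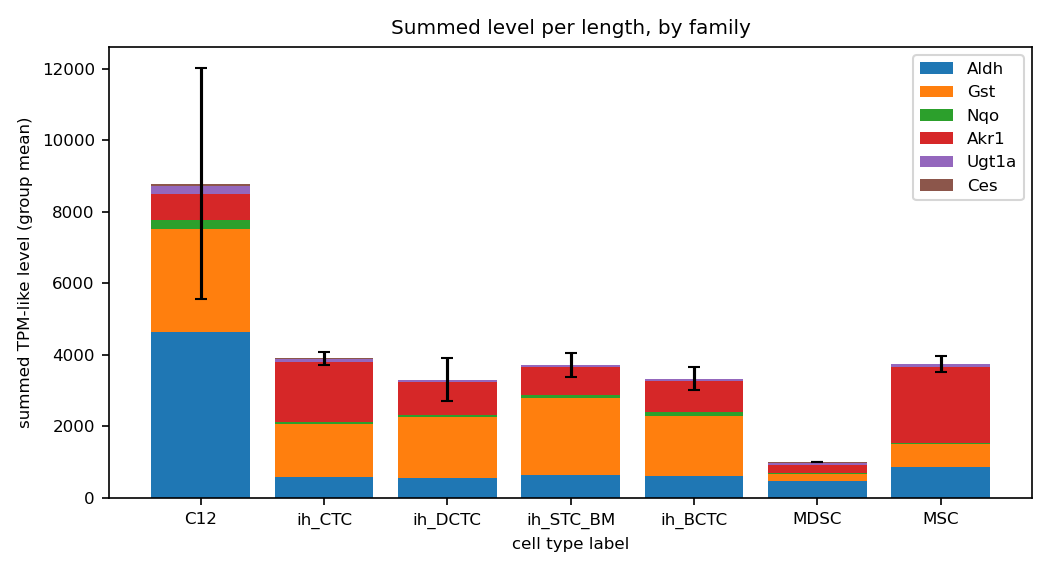
Stacked bars give the mean level per transcript length (TPM) of each enzyme family in each cell type label, summed over its genes, and error bars the SD of the total over libraries (n = 3, or 2 for MSC). The C12 bar reaches 8790 with Aldh genes as its largest share, the other lines lie between 3310 and 3900, MDSC lies at 1000 and MSC at 3750.

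**Figure D2:**
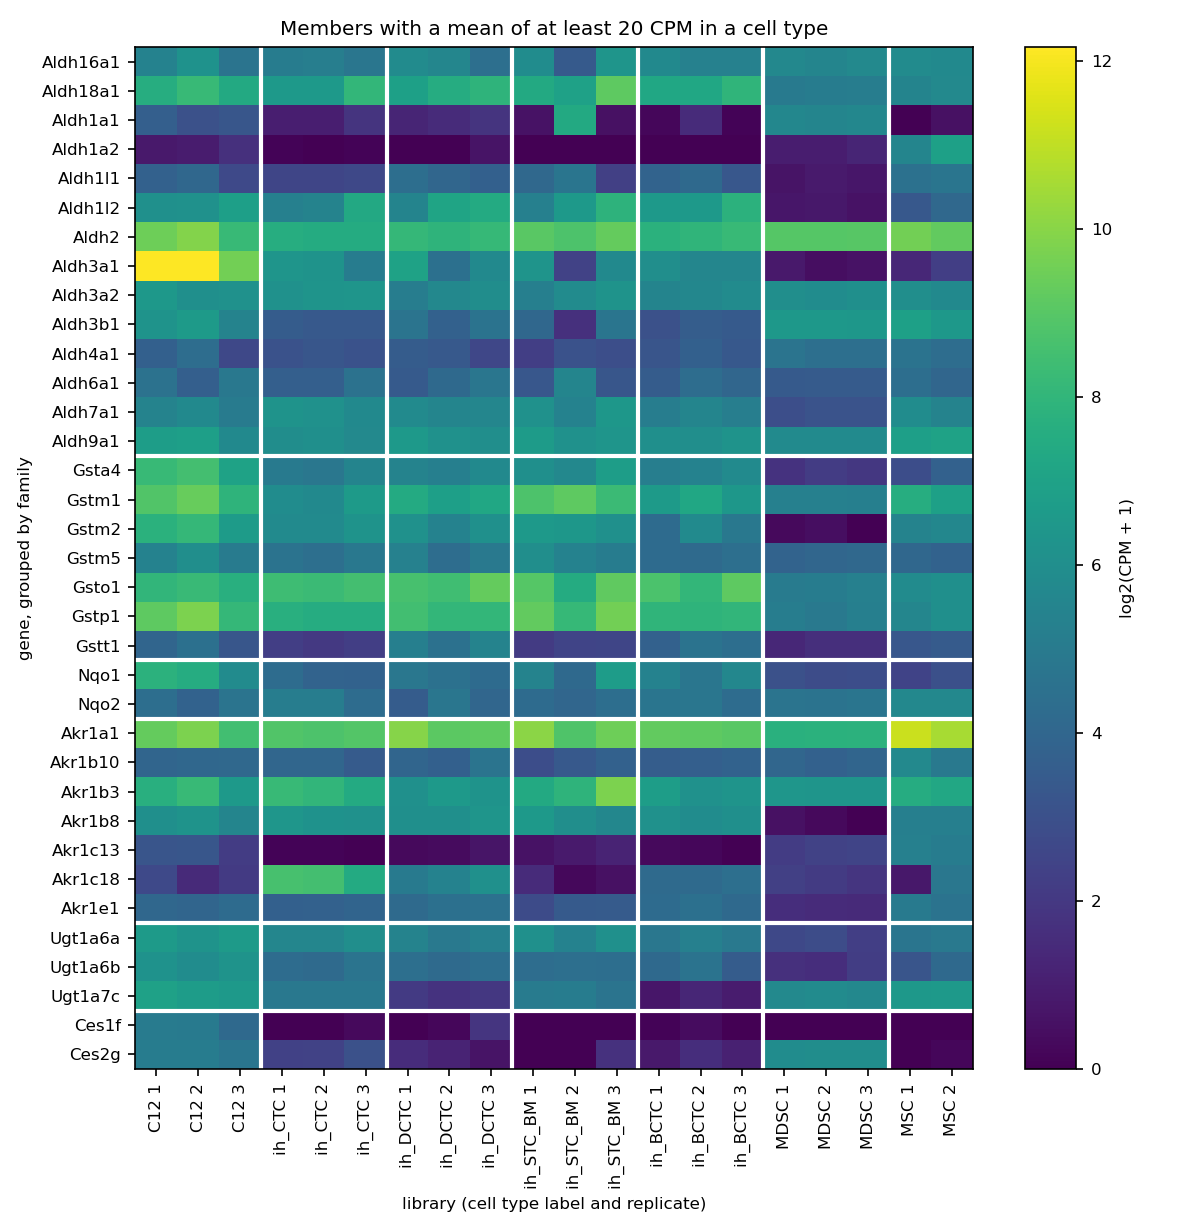
Each row is 1 of the 35 genes with a mean of at least 20 CPM in a cell type label, each column 1 library, and color gives log2(CPM + 1). Aldh3a1 is brightest in C12, Akr1c18 in ih_CTC and Akr1a1 in MSC, while Gstm2, Akr1b8, Aldh1l2 and Ces1f are dark in MDSC.

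The 3 lines with macrophage or dendritic cell labels were compared with MDSC, the untransformed group with a myeloid label. By the marker sums above, the lines held few myeloid transcripts and MDSC few mesenchymal ones. Cell type therefore cannot be told apart from transformation here. These comparisons share the MDSC libraries, and fits of all 20 libraries were tested by edgeR at an adjusted p under 0.05. The MDSC libraries differed little beyond sampling noise and may not be separate samples, so p-values against MDSC may be too small. C12 differed in 37 of the 61 tested genes, 34 higher and 3 lower, against 61.7% of all 15779 tested genes (31.3% higher and 30.5% lower). The share of members called, 60.7%, was near that background, and the balance of higher and lower calls was not. ih_CTC differed in 39, 25 higher and 14 lower, against 55.3% of all genes (28.2% higher and 27.1% lower). ih_DCTC differed in 45, 31 higher and 14 lower, against 59.3% of all genes (31.2% higher and 28.1% lower). Over the tested members, log2 fold changes had a median of 1.65 for C12, 1.08 for ih_CTC and 1.52 for ih_DCTC, beside 0.03, 0.08 and 0.09 over all genes. With members that had 0 to 3 counts in a group set to their bound or counted ratio, these medians were 1.60, 0.69 and 1.14. Members that passed the count filter only through a group where they are high had to differ, so these counts describe the list and do not test it.

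By family, the Gst genes were mostly higher and the Aldh genes were divided. Of 19 tested Gst genes, 14 were higher and 2 lower in C12, 10 higher and 2 lower in ih_CTC, and 14 higher and 1 lower in ih_DCTC. Of these 19, 7 had 0 to 3 counts in a group in the C12 comparison and 6 in each of the others. At their bound or counted ratio, the Gst median log2 fold change stayed 3.57 in C12. It went from 2.51 to 0.9 in ih_CTC and from 3.72 to 3.15 in ih_DCTC. Of 18 tested Aldh genes, 7 were higher and 1 lower in C12, and 6 higher and 7 lower in both ih_CTC and ih_DCTC. Akr1 genes numbered 5 higher and 0 lower of 10 in C12, 6 higher and 1 lower in ih_CTC, and 5 higher and 1 lower in ih_DCTC. The 6 tested Ces genes numbered 4 higher and 0 lower in C12, 1 higher and 3 lower in ih_CTC, and 3 higher and 3 lower in ih_DCTC. Of these 6, 3 had 0 to 3 counts in a group in the C12 comparison and 5 in each of the others. With those set to their bound or counted ratio, the Ces median went from 4.48 to 2.93 in C12. It went from 0.11 to -1.53 in ih_CTC and from 1.43 to -0.42 in ih_DCTC.

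**Figure D3:**
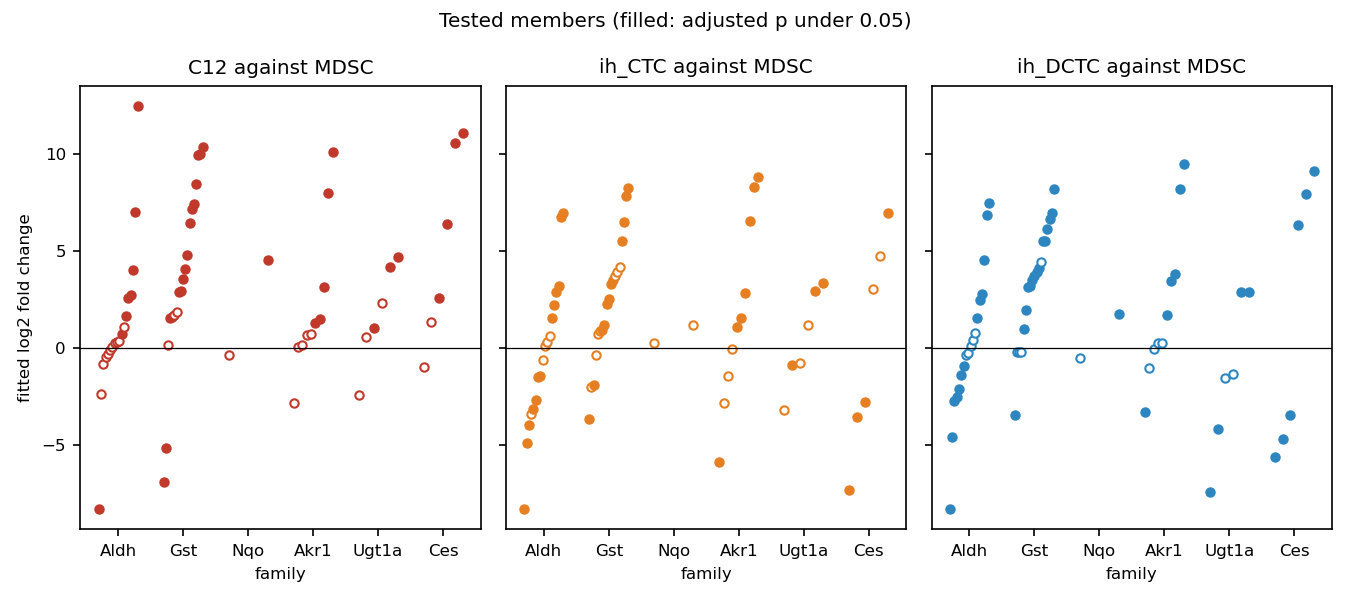
Each point is the fitted log2 fold change of 1 tested gene against MDSC in C12, ih_CTC or ih_DCTC, by family, with filled points at an edgeR adjusted p under 0.05. Gst points lie mostly above 0 in all 3 panels while Aldh points lie on both sides in ih_CTC and ih_DCTC; values of genes with 0 counts in 1 group depend on the prior count and are no measure of size.

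Aldh3a1 (ENSMUSG00000019102, chromosome 11, 61207537 to 61218421, plus strand), which oxidises medium-chain and aromatic aldehydes and is abundant in cornea, had the largest fitted difference from MDSC of all members in C12, and not in ih_CTC or ih_DCTC. It was at 4490, 4590 and 769 CPM in the 3 C12 libraries, 33.1 to 79.5 CPM in ih_CTC, 21.7 to 128 CPM in ih_DCTC, 4.36 to 78.6 CPM in ih_STC_BM and 46.7 to 63.2 CPM in ih_BCTC. MDSC had 0.773, 0.361 and 0.533 CPM and MSC 1.56 and 3.78 CPM. Every line library lay above every MDSC and MSC library, and every C12 library above every library of the other lines. The log2 fold change against MDSC was 12.49 ± 1.29 in C12 (SE; edgeR adjusted p = 2.95e-07), 6.77 ± 1.08 in ih_CTC (adjusted p = 4.29e-05) and 6.89 ± 1.08 in ih_DCTC (adjusted p = 3.59e-05).

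Several Aldh enzymes of amino acid and folate metabolism are described next. Aldh1l2, which releases carbon dioxide from 10-formyltetrahydrofolate in mitochondria, was at 67, 69.1 and 116 CPM in C12, 38.9, 43.1 and 163 CPM in ih_CTC and 44.5, 137 and 172 CPM in ih_DCTC, against 0.663, 0.721 and 0.533 CPM in MDSC. No line library overlapped with MDSC, and the log2 fold changes were 7.02, 6.98 and 7.51 (edgeR adjusted p of at most 3.46e-06). Its cytosolic counterpart Aldh1l1 was higher by 4.02, 2.87 and 4.54. Aldh18a1, which makes the proline precursor pyrroline-5-carboxylate, was at 166 to 293 CPM in C12, 93.7 to 264 CPM in ih_CTC and 121 to 241 CPM in ih_DCTC, against 30.4 to 34.6 CPM in MDSC, and was higher in all 3 (adjusted p of at most 0.00161). Aldh7a1, a lysine-degrading enzyme, and Aldh5a1, which oxidises succinic semialdehyde, also rose in all 3 lines. Aldh7a1 was at 32.8 to 54.4 CPM in C12, 53.9 to 74.7 CPM in ih_CTC and 45.7 to 55.2 CPM in ih_DCTC, against 6.51 to 7.57 CPM in MDSC.

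The retinaldehyde dehydrogenases are Aldh1a1, Aldh1a2 and Aldh1a3. Aldh1a1, which makes retinoic acid, was at 11.9, 7.02 and 8.7 CPM in C12, 1.06, 1.06 and 2.57 CPM in ih_CTC and 1.37, 1.81 and 2.54 CPM in ih_DCTC, against 48.4, 45.4 and 49.2 CPM in MDSC. All 9 line libraries lay below MDSC, and the fall passed the test in ih_CTC (log2 fold change -4.92 ± 1.49, edgeR adjusted p = 0.00945) and ih_DCTC (-4.63 ± 1.46, adjusted p = 0.0118) and not in C12 (-2.37 ± 1.30, adjusted p = 0.121). Aldh1a1 was also at 169 CPM in ih_STC_BM 2, against 0.493 and 0.44 CPM in the other libraries of that line, and the shared spread of the fit includes this library. Aldh1a3 was not tested and reached 0.658 CPM. Aldh1a2 was at most 2.27 CPM in any line library, at 0.962 to 1.39 CPM in MDSC and at 45.8 and 119 CPM in MSC. Its fall against MDSC was called in ih_CTC and ih_DCTC, and the ih_DCTC call (log2 fold change -2.51, adjusted p = 0.0315) ended without ih_DCTC 1, ih_DCTC 2, MDSC 1 or MDSC 3 (adjusted p of 0.0519 to 0.0993). The mitochondrial Aldh1b1 had 0 counts in C12, ih_CTC, ih_DCTC and ih_BCTC and 0, 0.101 and 0.733 CPM in ih_STC_BM, against 3.75, 4.21 and 3.62 CPM in MDSC and 19.4 and 8.69 CPM in MSC. It was at least 39.7-fold lower in C12 than in MDSC, 44.1-fold in ih_CTC and 41.5-fold in ih_DCTC, with 3 counts over the group as the floor.

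Aldh2, the mitochondrial enzyme that clears acetaldehyde, was expressed in all libraries. It was at 705, 954 and 297 CPM in C12, 176 to 190 CPM in ih_CTC, 236 to 284 CPM in ih_DCTC, 438 to 626 CPM in ih_STC_BM, 214 to 291 CPM in ih_BCTC, 504 to 512 CPM in MDSC and 774 and 610 CPM in MSC. It fell against MDSC in ih_CTC (log2 fold change -1.47, edgeR adjusted p = 0.00069) and ih_DCTC (-0.94, adjusted p = 0.0156). C12 lay on both sides of MDSC (0.36, adjusted p = 0.317), and the value was -0.75 (adjusted p = 0.00895) without the 5 line libraries under 3% intron share, which leaves C12 3 alone. Aldh3b1, an enzyme for lipid-derived aldehydes, was at 43.1 to 97.5 CPM in C12 and at 85.1 to 89.8 CPM in MDSC, and was lower in ih_CTC (9.55 to 10.6 CPM) and ih_DCTC (12.9 to 24.3 CPM). Aldh4a1, which degrades proline, and Aldh3b2 were lower in both as well, Aldh4a1 by 1.48 and 1.39 on the log2 scale and Aldh3b2 by 2.69 and 2.72. Aldh9a1, of carnitine synthesis, was higher in C12 (109, 114 and 53.3 CPM) than in MDSC (54.8 to 55.8 CPM), but its call (log2 fold change 0.73, adjusted p = 0.0206) ended without C12 1, C12 2 or any 1 MDSC library (adjusted p of 0.0522 to 0.0896) and the value was -0.04 with the intron share as a covariate. Aldh3a2, Aldh6a1 and Aldh16a1 did not pass the test in any of the 3 lines.

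Gsta4 (ENSMUSG00000032348, chromosome 9, 78191966 to 78209348, plus strand), which conjugates the lipid peroxidation product 4-hydroxynonenal, was at 288, 369 and 127 CPM in C12, 26.9 to 43.7 CPM in ih_CTC and 36.5 to 54.4 CPM in ih_DCTC. MDSC had 2.43, 3.49 and 2.98 CPM. The log2 fold changes were 6.46 ± 0.48 (edgeR adjusted p = 6.22e-09), 3.52 ± 0.43 (adjusted p = 2.21e-06) and 3.90 ± 0.435 (adjusted p = 7.48e-07), with no overlap between any line and MDSC.

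Gstp1 and Gsto1, the pi-class and omega-class enzymes, were among the most abundant members per length in every line. Gstp1 was at 574, 865 and 271 CPM in C12, 182 to 204 CPM in ih_CTC and 268 to 356 CPM in ih_DCTC, against 35.2, 29.1 and 36.5 CPM in MDSC. Gsto1 was at 257, 304 and 201 CPM in C12, 314 to 370 CPM in ih_CTC and 346 to 635 CPM in ih_DCTC, against 32.8, 33.7 and 38.1 CPM in MDSC. Neither gene overlapped between a line and MDSC, and log2 fold changes were 4.08, 2.51 and 3.15 for Gstp1 and 2.87, 3.28 and 3.72 for Gsto1. Gstp2, the near copy of Gstp1, was at 0 in MDSC and at 5.02 to 22.5 CPM in C12. Gsto2, also of the omega class, was at 4.23 to 8.55 CPM in C12, 7.75 to 14.4 CPM in ih_CTC and 5.72 to 19.1 CPM in ih_DCTC, against at most 0.533 CPM in MDSC.

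Mu-class genes differed from each other in direction. Gstm2 was at 215, 274 and 102 CPM in C12, 55.7 to 75.3 CPM in ih_CTC and 40.9 to 70 CPM in ih_DCTC, against 0.221, 0.361 and 0 CPM in MDSC. It was higher by 9.94, 8.29 and 8.21 on the log2 scale, with adjusted p of at most 1.36e-08 in edgeR. Gstm1 was at 463, 641 and 240 CPM in C12, 54.2 to 97.3 CPM in ih_CTC and 115 to 171 CPM in ih_DCTC, against 37.7 to 38 CPM in MDSC. It was higher in C12 (3.57) and ih_DCTC (1.94), while its call in ih_CTC (0.90, adjusted p = 0.0394) ended without ih_CTC 3 or any 1 MDSC library (adjusted p of 0.0888 to 0.201). Gstm5 was higher in C12 (1.60), and its call in ih_DCTC (0.95, adjusted p = 0.0138) ended without ih_DCTC 1 or MDSC 1 (adjusted p of 0.052 to 0.0953). Gstm4 ran the other way: it had 0, 0 and 0.0784 CPM in C12, 2.94 to 4.9 CPM in ih_CTC and 2.78 to 6.62 CPM in ih_DCTC, against 3.94 to 6.97 CPM in MDSC. It was 164-fold lower in C12 than in MDSC (95% counting interval 29.0 to 6540). Counting intervals and floors cover counting error only.

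Theta-class Gstt2 fell in all 3 lines, at 0.11 to 0.329 CPM in C12, 0.514 to 1.06 CPM in ih_CTC and 0.451 to 1.37 CPM in ih_DCTC, against 8.3 to 11.5 CPM in MDSC. Its neighbour in class Gstt1, which conjugates small halogenated compounds, was higher in C12 (14.6, 21.2 and 8.7 CPM) and ih_DCTC (36.7, 22.5 and 42.3 CPM) than in MDSC (1.55 to 2.16 CPM). In ih_CTC Gstt1 was at 3.02 to 3.85 CPM, above each MDSC library, with an adjusted p of 0.0573. Alpha-class Gsta2 had 0 counts in MDSC and MSC, 23.9, 16.1 and 8.07 CPM in C12 and at most 0.733 CPM in any library of the other lines. It was at least 134-fold higher in C12 than in MDSC. Gsta3 was at 12, 10.1 and 3.29 CPM in C12 and at 0, 0 and 0.107 CPM in MDSC, a 210-fold difference with a 95% counting interval of 37.3 to 8320.

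Nqo1 (ENSMUSG00000003849, chromosome 8, 107388225 to 107403206, minus strand), which reduces quinones by a 2-electron transfer and is a standard Nrf2 target, was at 224, 183 and 57.9 CPM in C12, 13.1 to 18.6 CPM in ih_CTC and 17.9 to 27.1 CPM in ih_DCTC. It was at 16.8 to 103 CPM in ih_STC_BM and 26.8 to 48.1 CPM in ih_BCTC, against 7.18, 6.13 and 6.39 CPM in MDSC and 4.37 and 6.76 CPM in MSC. Every line library exceeded every MDSC and MSC library. The difference from MDSC passed the test in C12 (log2 fold change 4.56 ± 0.59, edgeR adjusted p = 4.48e-06) and ih_DCTC (1.77 ± 0.53, adjusted p = 0.00873) and not in ih_CTC (1.198 ± 0.53, adjusted p = 0.0637). Nqo2, which uses another cosubstrate, stayed within a narrow range, at 13.2 to 25 CPM in C12, 18.7 to 34.9 CPM in ih_CTC, 10.6 to 26.2 CPM in ih_DCTC and 24.2 to 25.3 CPM in MDSC, with no call in the 3 comparisons, and was at 50.2 and 51 CPM in MSC.

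Akr1b8, an aldose reductase-like enzyme that reduces aliphatic and aromatic aldehydes, was nearly off in MDSC and even across the lines. It was at 64.6, 76 and 44.8 CPM in C12, 70.5 to 82.8 CPM in ih_CTC, 66.7 to 78.9 CPM in ih_DCTC, 48 to 91.7 CPM in ih_STC_BM and 59.5 to 69.2 CPM in ih_BCTC, against 0.442, 0.24 and 0 CPM in MDSC and 36.8 and 37.1 CPM in MSC. The log2 fold changes against MDSC were 8.03, 8.31 and 8.22 (edgeR adjusted p of at most 8.01e-10). Akr1b3, the aldose reductase of the polyol pathway, was at 200, 297 and 90.2 CPM in C12 and 79.7 to 83.3 CPM in MDSC. Its call in C12 (1.27, adjusted p = 0.0324) ended without C12 1, C12 2 or any 1 MDSC library (adjusted p of 0.0634 to 0.143) and the value was -0.14 with the intron share as a covariate, while ih_CTC was higher at 171 to 288 CPM (1.55, adjusted p = 0.0128). Akr1b10 did not pass the test in the 3 lines.

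Akr1c18, the 20-alpha-hydroxysteroid dehydrogenase that inactivates progesterone, marked ih_CTC. It was at 393, 365 and 171 CPM in ih_CTC and 31.3, 41.5 and 67.8 CPM in ih_DCTC, against 3.98, 3.37 and 2.66 CPM in MDSC, while C12 had 5.5, 1.75 and 3.21 CPM. The log2 fold change was 6.53 ± 0.93 in ih_CTC (edgeR adjusted p = 1.24e-05), 3.81 ± 0.83 in ih_DCTC (adjusted p = 0.000806) and 0.06 ± 0.80 in C12 (adjusted p = 0.955). Akr1c14, a 3-alpha-hydroxysteroid dehydrogenase, had 0 counts in MDSC and 5.15 to 19.3 CPM in C12, 3.51 to 8.65 CPM in ih_CTC and 3.11 to 17.5 CPM in ih_DCTC. It was at least 125-fold, 49.1-fold and 80.2-fold higher. Akr1a1, the general aldehyde reductase, and Akr1e1, a reductase of the sugar derivative anhydrofructose, were higher in all 3 lines than in MDSC, by 1.499, 1.08 and 1.69 for Akr1a1 and 3.15, 2.83 and 3.47 for Akr1e1 on the log2 scale. Akr1c13 was lower in ih_CTC and ih_DCTC, at most 0.635 CPM against 3.42 to 4.58 CPM in MDSC, and was at 3.53 to 8.55 CPM in C12.

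**Figure D4:**
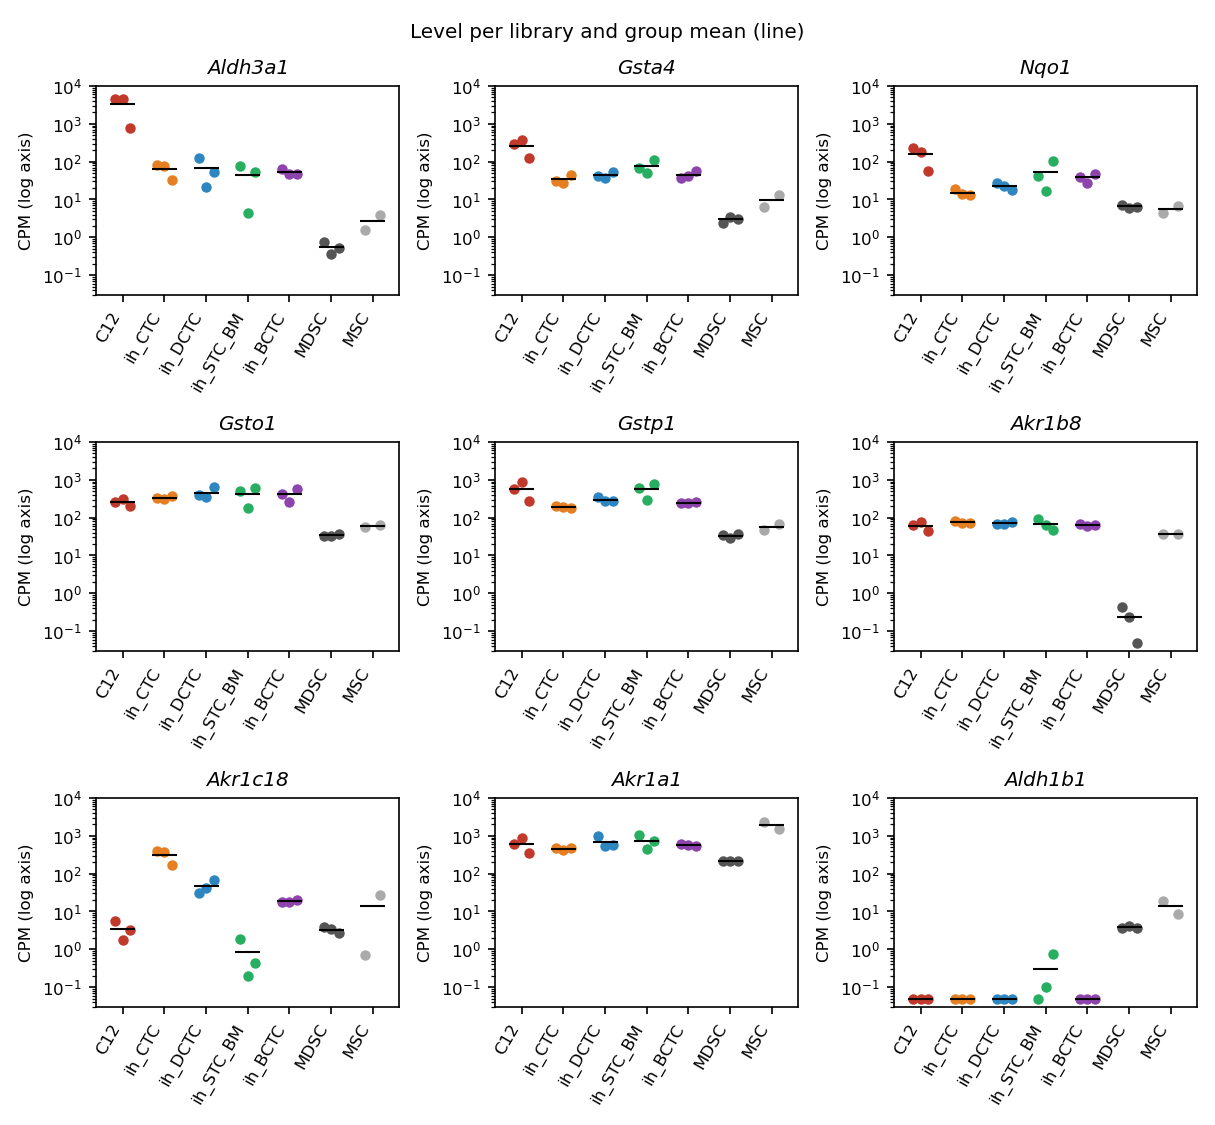
CPM (log axis) of 9 genes in every library, with a line at each group's mean and values under 0.05 CPM drawn at 0.05. Aldh3a1 reaches 4590 CPM in C12 and Akr1c18 393 CPM in ih_CTC, Gsto1, Gstp1 and Akr1b8 lie above MDSC and MSC in the lines, and Aldh1b1 lies at the floor in 4 lines.

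Most glucuronosyltransferase counts fell on 3 symbols. Ugt1a6a, whose enzyme couples glucuronic acid to simple phenols, was at 98, 74.8 and 97.6 CPM in C12, 46.2 to 63.5 CPM in ih_CTC and 29.3 to 42.8 CPM in ih_DCTC, against 3.84 to 6.13 CPM in MDSC. Its near copy Ugt1a6b was at 72.5, 59.9 and 73.8 CPM in C12, 17.6 to 24.3 CPM in ih_CTC and 17.5 to 20.9 CPM in ih_DCTC, against 2.04 to 3.62 CPM in MDSC. Both were higher in each line, with no overlap (edgeR adjusted p of at most 1.64e-06). Ugt1a7c differed: it was at 124, 106 and 93.5 CPM in C12, 28.7, 27.8 and 28.2 CPM in ih_CTC and 3.24, 2.41 and 2.9 CPM in ih_DCTC, against 51.6, 56.8 and 50.2 CPM in MDSC. The 3 lines were thus above, below and far below MDSC, with log2 fold changes of 1.03 ± 0.23 (adjusted p = 0.000954), -0.90 ± 0.23 (adjusted p = 0.003) and -4.21 ± 0.27 (adjusted p = 8.57e-10). ih_BCTC was lower still, at 0.676, 1.46 and 0.904 CPM, and MSC was at 89.2 and 91.9 CPM.

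Summed over the 9 symbols, which does not depend on how shared exons were assigned, Ugt1a was at 298, 244 and 276 CPM in C12, 96.7, 94.6 and 119 CPM in ih_CTC, 68.5, 50.1 and 62.5 CPM in ih_DCTC, 97.3 to 120 CPM in ih_STC_BM and 41.9 to 65.5 CPM in ih_BCTC. MDSC had 65.7, 67.1 and 63.4 CPM and MSC 123 and 145 CPM. Against MDSC the sum was higher in C12 (log2 fold change 2.06, edgeR adjusted p = 4.62e-07) and ih_CTC (0.66, adjusted p = 0.0144), and ih_DCTC overlapped with MDSC (-0.12, adjusted p = 0.658). The 9 Ugt2 genes had 0 counts in every library, so no level above the floor of 0.0833 to 0.143 CPM, 3 counts over a group, was detectable for any of them.

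Of 20 carboxylesterases, 6 were tested. Ces2g was at 33.1, 33.8 and 25.5 CPM in C12 and 59.1, 61.4 and 62.2 CPM in MDSC, a difference that did not pass the test (log2 fold change -0.98, edgeR adjusted p = 0.211). It was lower in ih_CTC (4.13 to 7.02 CPM, -3.56, adjusted p = 0.000569) and ih_DCTC (0.544 to 1.87 CPM, -5.61, adjusted p = 2.17e-05). Ces1f had 31.9, 30.7 and 17.1 CPM in C12 and 0 counts in MDSC and MSC, and was at least 227-fold higher in C12 than in MDSC. Its call in ih_DCTC rested on 2.72 CPM in ih_DCTC 3 and ended without that library or any 1 MDSC library (adjusted p of 0.0559 to 0.241). Ces1g was at 17.4, 15.3 and 23.8 CPM in C12 and 0 in MDSC, at least 173-fold higher, and reached 18.6 CPM in ih_DCTC 3 alone of the ih_DCTC libraries, which had 1.49 and 0.226 CPM otherwise. Ces1d, which hydrolyses stored triglyceride in mouse liver and fat, was at 8.02, 7.02 and 19.8 CPM in C12 and 1.33, 2.52 and 2.02 CPM in MDSC (2.56, adjusted p = 0.00617). In ih_CTC Ces1d had 0 counts and was at least 22.2-fold lower. The Ces1 genes lie close together on chromosome 8, and Ces1d and Ces1f shared 77.4% of their coding sequence.

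**Figure D5:**
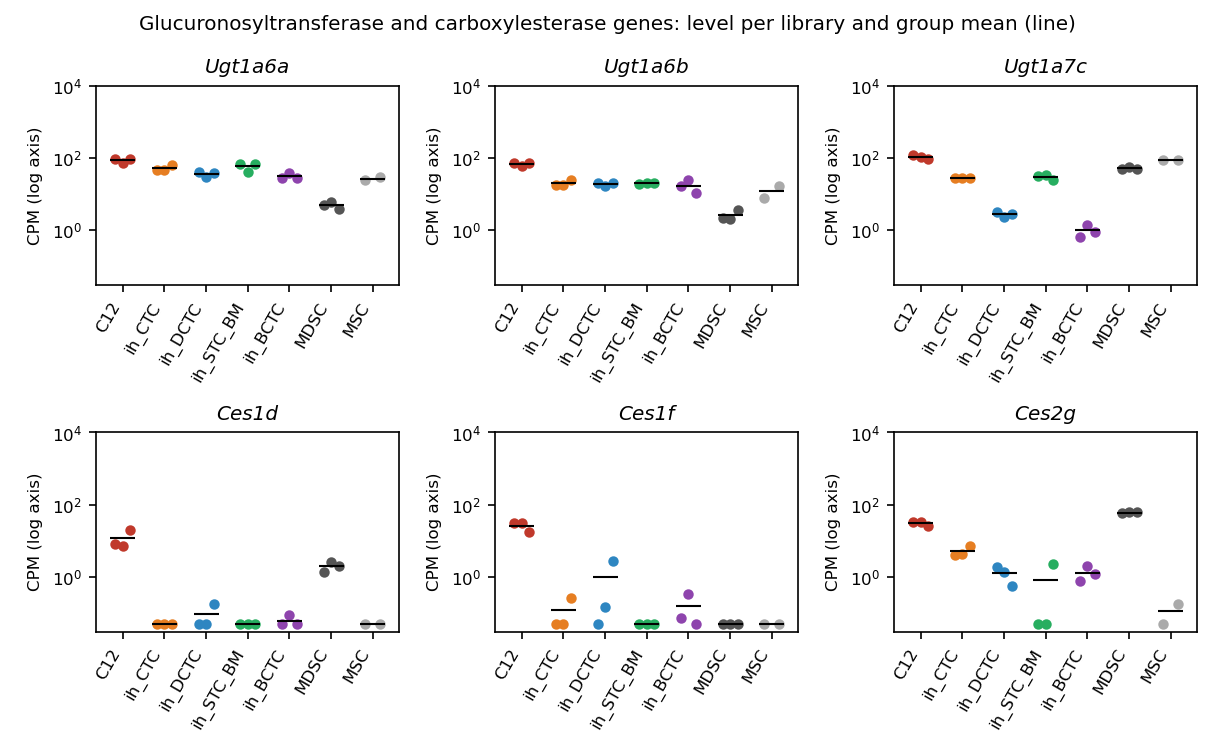
CPM (log axis) of 3 Ugt1a and 3 Ces genes in every library, with a line at each group's mean and values under 0.05 CPM drawn at 0.05. Ugt1a6a and Ugt1a6b are lowest in MDSC, Ugt1a7c is lowest in ih_DCTC and ih_BCTC, and Ces1d and Ces1f are mostly in C12.

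Setting the lines against each other shows how far 1 line differs from the rest without MDSC or MSC. Among the 5 lines, 33 of the 61 tested genes differed, against 33.2% of all genes, which is 54.1% of the members. C12 was higher than each of the other 4 lines in 13 members (21.3%), against 1.42% of all tested genes (224). Members such as Gsta2, Gsta3 and Ces1f were high mainly in C12 and could pass the count filter through it, so the 2 shares are a description and not a test. These were Akr1c13, Aldh3a1, Aldh3b1, Aldh3b2, Ces1d, Ces1f, Ces2e, Ces2g, Gsta2, Gsta3, Gsta4, Ugt1a6b and Ugt1a7c. C12 was lower than each in Gstm4 alone of the members, against 0.786% of all genes. ih_CTC was higher than each in Akr1c18, against 0.437% of all genes, and lower in 0 members, against 0.545%. ih_STC_BM was higher than each in Gstm4 and Gstt2, against 0.361% of all genes, and lower in 0 members, against 0.849%. ih_DCTC and ih_BCTC had no such member or gene in either direction, at a background of 0%. A gene at a like level in 2 lines cannot be higher or lower in either than in each of the other 4. ih_DCTC and ih_BCTC had close mean levels of their leading members, at 635 and 641 TPM for Akr1a1, 606 and 637 TPM for Gsto1 and 494 and 497 TPM for Gstp1.

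For Aldh3a1 the log2 fold change of C12 over the other lines was 5.60 to 6.17, for Gsta4 1.80 to 2.94 and for Ugt1a7c 1.83 to 6.72. Nqo1 was higher in C12 than in ih_CTC (3.36), ih_DCTC (2.78) and ih_BCTC (2.01), while its difference from ih_STC_BM did not pass the test (1.52, edgeR adjusted p = 0.0831). Gstm4 was at 12.1, 11.4 and 13.3 CPM in ih_STC_BM, and Gstt2 at 2.22, 3.65 and 8.07 CPM. The 13 members became 10 without C12 1 and 10 without ih_DCTC 2, beside 0.966% and 1.17% of all genes. They became 15 without C12 3 or ih_STC_BM 2, beside 1.89% and 1.59% of all genes. They were 7 without the 5 line libraries under an intron share of 3%, which leaves C12 3 and ih_STC_BM 2 as the only libraries of their lines, assumed to vary like the others; of those 7, Aldh3a1, Aldh3b1, Ces1d, Ces2g, Gsta2 and Ugt1a7c were among the 13. When each pair of lines was fitted alone, 4 remained of the 13, Ces1d, Ces1f, Ugt1a6b and Ugt1a7c. Of all genes, 63 (0.456%) were so called in those fits, against 224 (1.42%) in the main fit. The summed Ugt1a count was also higher in C12 than in each other line, by 1.30 to 2.42 on the log2 scale.

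Comparing MDSC with MSC shows how the untransformed groups differ. Of the 61 tested genes, 4 were higher and 25 lower in MDSC, against 46% of all genes (20.4% higher and 25.6% lower), and the median log2 fold change was -1.12 beside -0.07 over all genes. With the MDSC libraries summed to 1, the count was 19, with 4 higher and 15 lower. The 46% of all genes belongs to the main fit and is no background for that refit. Akr1a1 was at 212, 218 and 221 CPM in MDSC and 2350 and 1520 CPM in MSC (log2 fold change -3.16 ± 0.39, edgeR adjusted p = 5.6e-06 in the main fit). Akr1b8 (-7.29), Gstm2 (-7.83), Gstm1 (-2.02), Aldh1l1 (-5.11), Aldh7a1 (-2.81), Ugt1a6a (-2.44) and Ugt1a6b (-2.24) were also lower in MDSC. Ces2g ran the other way, at 59.1 to 62.2 CPM in MDSC and 0 and 0.176 CPM in MSC, 639-fold higher with a 95% counting interval of 177 to 5280. Akr1c12 was at most 0.0907 CPM in the lines and 0.12 CPM in MDSC, against 6.77 and 7.29 CPM in MSC.

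The lines labelled as mesenchymal stem cells and as oligodendrocytes were compared with MSC, as were the other 3 for reference. These comparisons share 2 MSC libraries. ih_STC_BM differed in 31 members, 17 higher and 14 lower, against 32.1% of all genes (14.8% higher and 17.4% lower). ih_BCTC differed in 28, 12 higher and 16 lower, against 36.7% (15.9% and 20.8%). C12 differed in 35, 25 higher and 10 lower, against 33.1% (14.7% and 18.4%). ih_CTC differed in 35, 16 higher and 19 lower, against 34.6% (14.7% and 19.9%). ih_DCTC differed in 29, 15 higher and 14 lower, against 34.1% (16% and 18.1%). Members called made up 45.9% to 57.4% of those tested. Many of these calls rested on both MSC libraries: of the named members called, 10 of 25 in ih_STC_BM, 9 of 24 in ih_BCTC, 10 of 29 in C12, 15 of 29 in ih_CTC and 11 of 24 in ih_DCTC lost the call when 1 library was left out, most often MSC 1 or MSC 2. Without MSC 1, ih_CTC had 20 members called, ih_DCTC 16 and ih_STC_BM 19. With only the groups compared in the fit, ih_STC_BM had 12.

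Aldh3a1, Gstp1, Gsto1 and Gsta4 were higher than in MSC in every line, and the Aldh3a1 call ended without MSC 1 in ih_CTC, ih_DCTC, ih_STC_BM and ih_BCTC (adjusted p of 0.0568 to 0.0935). Gstp1 was at 47.6 and 66 CPM in MSC, Gsto1 at 57 and 65 CPM and Gsta4 at 6.35 and 12.9 CPM, each below every line library. For ih_STC_BM the log2 fold changes were 3.29 ± 0.47 for Gstp1 (edgeR adjusted p = 3.53e-05), 2.79 ± 0.46 for Gsto1 (adjusted p = 0.000176) and 2.96 ± 0.48 for Gsta4 (adjusted p = 0.000141). In ih_CTC, Gstp1 and Gsta4 lost the call without MSC 1 (adjusted p of 0.071 and 0.0959). Aldh1a2, Aldh1b1, Akr1c12 and Akr1c13 were lower in every line. Aldh1a2 had 0 counts in ih_STC_BM and ih_BCTC and was at least 708-fold and 1030-fold lower than in MSC. Akr1c13 was at most 8.55 CPM in any line library, against 38.3 and 33.2 CPM in MSC. Akr1a1 was also lower in every line, but lost the call without MSC 1 in C12, ih_DCTC and ih_STC_BM (adjusted p of 0.051, 0.0961 and 0.127). Ugt1a7c was lower in ih_CTC, ih_DCTC, ih_STC_BM and ih_BCTC, by 1.68, 4.99, 1.58 and 6.47 on the log2 scale, and overlapped with no MSC library there.

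Other genes of these pathways were followed in lists of related genes, whose counts are to be read against the shares of all genes called against MDSC, 61.7% in C12 (31.3% higher and 30.5% lower), 55.3% in ih_CTC (28.2% higher and 27.1% lower) and 59.3% in ih_DCTC (31.2% higher and 28.1% lower). The list counts are given against MDSC only, and a gene called there may still lie near its MSC level. Of 21 tested Nrf2 targets outside the families, 11 were higher and 2 lower in C12 than in MDSC, 7 higher and 7 lower in ih_CTC, and 8 higher and 3 lower in ih_DCTC. These are 61.9%, 66.7% and 52.4% of the list, with median log2 fold changes of 1.13, -0.36 and -0.21 beside 0.03, 0.08 and 0.09 over all genes. Me1, the NADPH-producing malic enzyme, was at 119, 89.6 and 103 CPM in C12, 62.7 to 70.9 CPM in ih_CTC and 36.5 to 82.2 CPM in ih_DCTC, against 0.994, 0.721 and 0.533 CPM in MDSC. Srxn1, sulfiredoxin, was at 138 to 278 CPM in C12 and 87.9 to 131 CPM in ih_CTC and ih_DCTC, against 6.73 to 7.07 CPM in MDSC. Against MSC, the Srxn1 log2 fold changes were 0.547 in C12, -0.218 in ih_CTC and -0.591 in ih_DCTC, none passing the test. For MDSC against MSC the value was -4.457. Osgin1 was lower in all 3 than in MDSC, at 37.5 to 48.8 CPM in C12 and 5.06 to 10.4 CPM in ih_CTC and ih_DCTC, against 179 to 185 CPM in MDSC. Against MSC, Osgin1 was higher in C12 (log2 fold change 1.179), lower in ih_CTC (-1.374) and higher in MDSC (3.268). Of 8 Nrf2 regulators, 3 were higher and 3 lower in C12, 1 higher and 2 lower in ih_CTC, and 1 higher and 2 lower in ih_DCTC (75%, 37.5% and 37.5% called). The lower ones in all 3 included Mafk, a small Maf partner of Nrf2, at 22.4 to 36.2 CPM in C12 against 402 to 421 CPM in MDSC, and the repressor Bach1, at 6.91 to 38.4 CPM in C12 against 147 to 149 CPM in MDSC. Nfe2l2, which encodes Nrf2, was at 219 to 417 CPM in C12, 314 to 439 CPM in ih_CTC, 215 to 400 CPM in ih_DCTC and 228 to 239 CPM in MDSC.

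Against MDSC, genes tied to the aryl hydrocarbon receptor numbered 3 higher and 2 lower of 6 in C12, 1 higher and 1 lower in ih_CTC, and 3 higher and 1 lower in ih_DCTC. That is 83.3%, 33.3% and 66.7% called, against 61.7%, 55.3% and 59.3% of all genes. Cyp1a1, its classic target, was at 31, 23 and 2.04 CPM in C12 and at most 1.2 CPM in every other library, log2 fold change 6.86 ± 1.22 against MDSC (edgeR adjusted p = 0.00022). Cyp1b1 was higher in all 3 lines than in MDSC, at 35.5 to 100 CPM against 0.533 to 0.883 CPM. Against MSC, its log2 fold change was -1.052 in C12 and -0.92 in ih_CTC, neither passing the test. For MDSC against MSC it was -7.563. The 2 lower genes in C12 were Ahr, which encodes the receptor itself (log2 fold change -1.26, edgeR adjusted p = 0.0277), and Tiparp (-2.99, adjusted p = 0.000306). Of 13 tested P450 and reductase genes, 5 were higher and 2 lower in C12, 4 higher and 3 lower in ih_CTC, and 6 higher and 2 lower in ih_DCTC, which is 53.8%, 53.8% and 61.5% called. Cyp4f18, a leukotriene B4 hydroxylase of neutrophils, had 0 counts in the 3 lines, against 184 to 191 CPM in MDSC.

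Of 10 tested retinoic acid genes, 5 were higher and 2 lower in C12, 7 higher and 1 lower in ih_CTC, and 6 higher and 1 lower in ih_DCTC (70%, 80% and 70% called, against 61.7%, 55.3% and 59.3% of all genes). Crabp1, a retinoic acid binding protein, was higher in all 3, at 14.6 to 67.9 CPM in C12, 210 to 260 CPM in ih_CTC and 305 to 780 CPM in ih_DCTC, against 0.24 to 0.442 CPM in MDSC. Of 30 tested related enzymes, 21 were higher and 6 lower in C12, 18 higher and 8 lower in ih_CTC, and 17 higher and 7 lower in ih_DCTC (90%, 86.7% and 80% called). Cbr2, a carbonyl reductase, was at 720, 904 and 512 CPM in C12, 19.4 to 28 CPM in ih_CTC and 146 to 562 CPM in ih_DCTC, against 0.552 to 0.842 CPM in MDSC. Adh7, an alcohol dehydrogenase that also oxidises retinol, was at 63.4 to 103 CPM in C12, 52.6 to 114 CPM in ih_CTC and 13.3 to 55.3 CPM in ih_DCTC, against at most 0.24 CPM in MDSC.

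Of 4 genes of glucuronate supply, 1 was higher and 2 lower in C12, 1 higher and 1 lower in ih_CTC, and 1 higher and 0 lower in ih_DCTC (75%, 50% and 25% called, against 61.7%, 55.3% and 59.3% of all genes). Ugdh, which makes the UDP-glucuronic acid that the Ugt1a enzymes use, was at 129 to 194 CPM in C12, 162 to 275 CPM in ih_CTC and 180 to 322 CPM in ih_DCTC, against 55.3 to 57.5 CPM in MDSC. Of 5 tested efflux pumps, which export conjugates and drugs, 2 were higher and 3 lower in C12, 1 higher and 2 lower in ih_CTC, and 1 higher and 3 lower in ih_DCTC (100%, 60% and 80% called). The pumps Abcc1 and Abcc4 were counted with the Nrf2 targets and not here. In C12 against MDSC, Abcc1 was higher (log2 fold change 2.722, edgeR adjusted p = 9.75e-06) and Abcc4 did not pass the test (-0.715). Abcg2 was lower in all 3 lines, at 2.52 to 11.4 CPM against 43.1 to 47.5 CPM in MDSC, and Abcb1b was higher, by 2.87, 3.11 and 2.28 on the log2 scale.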

How the data were processed

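RNA was extracted with TRIzol and sequenced from TruSeq libraries of 20 samples, per the labels. The authors deposited expected counts, estimated reads per Ensembl gene, and STAR, RSEM 1.2.26 and DESeq2 are listed, with no role, in the submitters' processing notes. No build is stated in the sources used here, and coordinates are those of the deposited annotation. Start and end equalled those of GENCODE M21 for 67 of the 96 members.

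Of the members' values 14.84% were not whole. Counts were rounded and scaled by TMM, and the 15779 genes passing filterByExpr (minimum count 10, minimum total 15) were fitted in edgeR 4.0.16 under R 4.3.3 by a quasi-likelihood model with a mean per group over all 20 libraries (13 residual degrees of freedom), tested two-sided with Benjamini-Hochberg adjustment over all genes at 0.05. TPM were computed from counts and exon-union lengths of GENCODE M21. The procedure was tested on simulated data. Alternatives were DESeq2 1.42.0, limma 3.58.1 (voom), RLE and upper quartile scaling, no filter, only the groups compared, a fold limit, summed Ugt1a symbols, the intron share as covariate, and libraries left out. Figures were drawn with matplotlib 3.10.9.

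The members and gene lists were chosen with earlier results of these data known. Members with a mean of at least 20 CPM in a group and a set of 17 were named, with up to 5 called members per direction and comparison; of each list, up to 3 called genes at 5 CPM or more were named. Gsta2, Gsta3, Gstt2, Gsto2, Gstp2 and others under 20 CPM were named under the second rule or because the line comparison singled them out. Nfe2l2 was named from the comparison among lines. Adgre1 was not matched in the table. Groups come from the labels, which carry no replicate numbers.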

Additional observations from a re-analysis of the deposited data

Results flagged for a closer look

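Each of the following differences between the effects of 2 lines against a common group was tested directly in the edgeR fit of all libraries. A gene is listed only if it was called in opposite directions in its 2 lines and this direct test also passed. The pair of lines with the smallest adjusted p is given, so these p-values describe the selection and do not test it. Ces1d was higher than in MDSC in C12 and lower in ih_CTC, and the difference of the fitted log2 effects was 9.906 (adjusted p = 0.000199), a size that depends on the prior count since ih_CTC had 0 counts. Ugt1a7c was higher than in MDSC in C12 and lower in ih_DCTC, a difference of 5.245 (adjusted p = 5.42e-09). Akr1c18 was higher than in MSC in ih_CTC and lower in ih_STC_BM, a difference of 8.539 (adjusted p = 6.27e-05), but MSC 1 had 0.729 CPM and MSC 2 had 27 CPM, and the fall in ih_STC_BM turned to a log2 fold change of 0.16 without MSC 2. Gstm1 was higher than in MSC in C12 and lower in ih_CTC, a difference of 2.666 (adjusted p = 0.000155), though the call in C12 ended without MSC 2 (adjusted p = 0.109) and that in ih_CTC without ih_CTC 1, ih_CTC 2 or MSC 1 (0.102 to 0.316). Gstt1 was lower than in MSC in ih_CTC and higher in ih_DCTC, a difference of -3.251 for ih_CTC minus ih_DCTC (adjusted p = 3.15e-05), and the call in ih_CTC ended without MSC 2 (adjusted p = 0.056). Groups of 2 or 3 libraries were too small for a test of single outlying libraries.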

How the results depend on the processing

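Most results kept their direction and their side of the threshold. Beside the values in the report, leaving out 1 library gave 35 to 40 members called in C12, 35 to 38 in ih_CTC and 42 to 45 in ih_DCTC against MDSC, 22 to 26 in MDSC against MSC, 24 to 35 in C12, 20 to 32 in ih_CTC, 16 to 29 in ih_DCTC, 19 to 32 in ih_STC_BM and 20 to 27 in ih_BCTC against MSC, 31 to 37 among the lines and 10 to 15 higher in C12 than in each other line. Summing MDSC to 1 library, an alternative chosen after seeing the data like all those of the C12 count, gave 19 members in MDSC against MSC, fitting only the groups compared gave 12 in ih_STC_BM against MSC and 4 higher in C12 than in each other line, and 7 were higher without the 5 line libraries of low intron share. With the intron share as a covariate, log2 fold changes turned to -0.14 for Akr1b3 and -0.04 for Aldh9a1 in C12 against MDSC, and to 2.53 for Aldh16a1 and 2.49 for Aldh3b1 in MDSC against MSC. Without the 5 libraries they turned to -0.75 for Aldh2 and -0.04 for Aldh9a1 in C12 against MDSC and -0.94 for Akr1b3 in C12 against MSC. In ih_STC_BM against MSC, leaving out 1 library gave -5.46 to 0.16 for Akr1c18, which turned without MSC 2, and -2.29 to 8.89 for Aldh1a7, which turned without ih_STC_BM 2. The cause was not tested. Of the named members' fold changes, DESeq2 lost 2 calls and added 22, and voom lost 10 and added 12. Under upper quartile scaling the median of all genes lay at 0.30, 0.25 and 0.31 (log2) for C12, ih_CTC and ih_DCTC against MDSC, where TMM gave 0.03, 0.08 and 0.09, and this scaling reversed no named member; RLE scaling reversed none either. The count of 13 members in C12 was 13 under RLE, upper quartile scaling and no filter, 15 with DESeq2 and 16 with voom. Of all genes, 1.5% were so called under RLE, 1.57% under upper quartile scaling and 0.881% with no filter. The shares were 1.96% with DESeq2 and 2.02% with voom. With the longest transcript as length, 21 of 56 levels per length moved by more than the SD between libraries. No paired analysis was possible because the labels carry no replicate numbers. Depth limits the low genes: 3 counts over a group equal 0.0833 to 0.143 CPM.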
